A study of Homo sapiens with 2 samples.

Results

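The interferon-stimulated genes and RNA sensors described here are 51 genes. They were picked by name, with earlier results of these data known. When matched to the symbols of a table of 13137 genes from A549 cells, all 51 were found in it. They fall into 34 type I response genes, 14 sensors and regulators, and a group of 3 called the GBP genes. That group holds the guanylate-binding protein (GBP) genes GBP2 and GBP3 and the pseudogene GVINP1, which is not a GBP gene by name. A549 is a human lung adenocarcinoma line. The study infected it with a lentiviral vector in which a doxycycline-switched H1 promoter drives a short hairpin RNA, either against the transcription factor gene SOX2 (H1TetO-shRNA-SOX2) or with a scrambled sequence (H1TetO-shRNA-Con). The cells were selected as a mixed population, not as single clones, and both lines were kept in doxycycline for 4 days before RNA was taken, so the control cells also carried the vector, an expressed hairpin RNA and the drug. The study asked what silencing SOX2 does to the mRNA of these cells, and each condition was read by 1 digital gene expression library, in which a short sequence tag is counted for each captured mRNA.

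Interferons are secreted proteins that cells release when they sense foreign or misplaced nucleic acid. Type I interferons bind a receptor whose kinases JAK1 and TYK2 phosphorylate STAT2. STAT2 and IRF9 are subunits of ISGF3, a complex that switches on a large programme of antiviral genes through a short DNA element, the interferon-stimulated response element. The programme includes the sensors that start it, such as the RNA helicases RIG-I (gene DDX58) and MDA5 (gene IFIH1), and the transcription factors IRF1, IRF7 and IRF9, so that it feeds itself. In epithelial cells of the airway it is best known as the first defence against RNA viruses.

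The core of that element is the 4 bases GAAA, any 2 bases and GAAA again. It was searched on both strands of the promoter windows that RefSeq gives for GRCh38.p14, from 250 bases before to 50 bases after a gene start. Of the 51 genes, 41 have a window in that table. IFIT2, IFITM2, USP18, OASL, TRIM22, IRF2, IRF3, IRF7, GBP2 and GVINP1 have none. A match is a description of these letters and not a measured binding site. The core was found in 26 of the 41 (63.4%), against 1195 of 27305 genes with a window in the whole table (4.38%) and 310 of 8293 genes with at least 20 tags here (3.74%). When CT had to follow the second GAAA, the count was 14 of 41 members (34.1%) against 88 of 27305 genes (0.322%). Below, all 6 genes that carry the core and passed the test in these libraries are printed first. Capitals mark the core, a core on the other strand reads as TTTC, 2 bases and TTTC, and each stretch is given in the direction of its gene.
IFI6 (chr1:27672271-27672353, minus strand): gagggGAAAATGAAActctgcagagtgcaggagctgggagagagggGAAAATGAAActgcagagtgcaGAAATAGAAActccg
IFI27 (chr14:94110623-94110655, plus strand): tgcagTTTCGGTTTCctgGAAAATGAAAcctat
IFIT1 (chr10:89392502-89392534, plus strand): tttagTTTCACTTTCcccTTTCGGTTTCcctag
LGALS3BP (chr17:78979967-78979986, minus strand): ttctgGAAATCGAAAgtaga
MYD88 (chr3:38138595-38138614, plus strand): tctcgGAAAGCGAAAgccgg
GBP3 (chr1:89022850-89022869, minus strand): agtacTTTCAGTTTCattag

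IFI6 holds 3 copies, and IFI27 and IFIT1 hold 2 each. The next stretches are a selection from the 20 genes that carry the core and did not pass the test. In ISG15 and IFIT3 the tags were more numerous in the library labelled shRNA-SOX2. In HERC5, ISG20, EIF2AK2 and PLSCR1 they were fewer, with log2 fold changes of -0.45, -0.98, -0.08 and -0.17. No other gene of the 20 with a fold had a log2 fold change below 0. Several with more tags, such as IFIT5 and OAS3, are not printed, so the selection does not show how often either direction occurred. In ISG15 and HERC5 2 of the cores overlap.
IFIT3 (chr10:89327836-89327889, plus strand): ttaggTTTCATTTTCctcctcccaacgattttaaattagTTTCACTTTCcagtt
ISG15 (chr1:1013379-1013404, plus strand): ctcggGAAAGGGAAACCGAAActgaa
HERC5 (chr4:88456989-88457059, plus strand): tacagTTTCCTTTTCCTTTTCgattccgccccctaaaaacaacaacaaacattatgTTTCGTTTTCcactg
ISG20 (chr15:88638942-88638961, plus strand): aactaGAAACTGAAAcaggg
EIF2AK2 (chr2:37156972-37156991, minus strand): aagggGAAAACGAAActgag
PLSCR1 (chr3:146544672-146544691, minus strand): accggGAAAAGGAAAccgtg
DTX3L (chr3:122564327-122564346, plus strand): gaagcGAAACTGAAActttg

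The shRNA-Con library held 2304184 gene tags, and the library labelled shRNA-SOX2 held 2093816. With 1 library per condition no spread between replicates could be measured. Each gene's tags were set against all other gene tags in a two-sided Fisher's exact test, adjusted by Benjamini-Hochberg over all 13137 genes, at the study's threshold of a false discovery rate (FDR) of 0.001. That test and its 95% Clopper-Pearson intervals cover counting error only and compare these libraries, not the conditions. The deposited value columns bear the short names SC and S1, of which SC was taken to abbreviate shRNA Con, which leaves S1 for shRNA-SOX2. Wherever a pair of tag counts stands below, shRNA-Con comes first. SOX2, the targeted gene, had 16 and 23 tags, a ratio of 1.58 (interval 0.800 to 3.20, adjusted p = 0.333, Fisher's exact test). The silencing is thus not seen in the SOX2 tags, and every direction below is that of the library labelled shRNA-SOX2. Of 8 lung epithelial and A549 markers 7 were listed. Past FDR 0.001, the keratins KRT8 (7702 and 12729 tags) and KRT19 (35 and 127) and the dehydrogenase ALDH1A1 (7035 and 14268) were higher, and KRT18 (10318 and 7887) and AKR1B10 (6039 and 4581) were lower. The adhesion genes CDH1 (50 and 50) and EPCAM (8 and 4) did not pass, and the part of these differences in the results below was not tested. Of 8 leukocyte and macrophage markers 5 were listed, with 18 and 24 tags in all, and PTPRC, which defines leukocytes, had 2 in each. The 3 listed fibroblast markers of 6 summed to 46 and 54 tags, and of 4 endothelial markers only PECAM1 was listed, with 3 and 0. In a bulk sample, fewer cells with a transcript and less of it per cell cannot be told apart.

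Of the 51 genes, 14 (27.5%) had a higher tag share at FDR 0.001 in the library labelled shRNA-SOX2, against 9.53% of all genes. Among the 14 were IFI6, IFIT1, the RIG-I gene DDX58 and the GTPase gene GBP3. The genes were named with earlier results of these data known, so these shares describe the list and do not test it. No member (0 of 51) was lower, while 12.2% of all genes were. At an FDR of 0.05 the 25 members past it were 22 higher and 3 lower, the latter IFITM2, ISG20 and ADAR. Of all 13137 genes, 2148 were higher and 2754 lower at that FDR of 0.05. The 14 were IFI27, IFI6, IFIT1, UBE2L6, HERC6, OAS1, SP100, LGALS3BP, DDX58, IRF1, IRF2, MYD88, GBP3 and GVINP1. Together the 51 genes had 1656 and 2703 tags, which is a ratio of 1.80 between their shares of the gene tags.

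**Figure D1:**
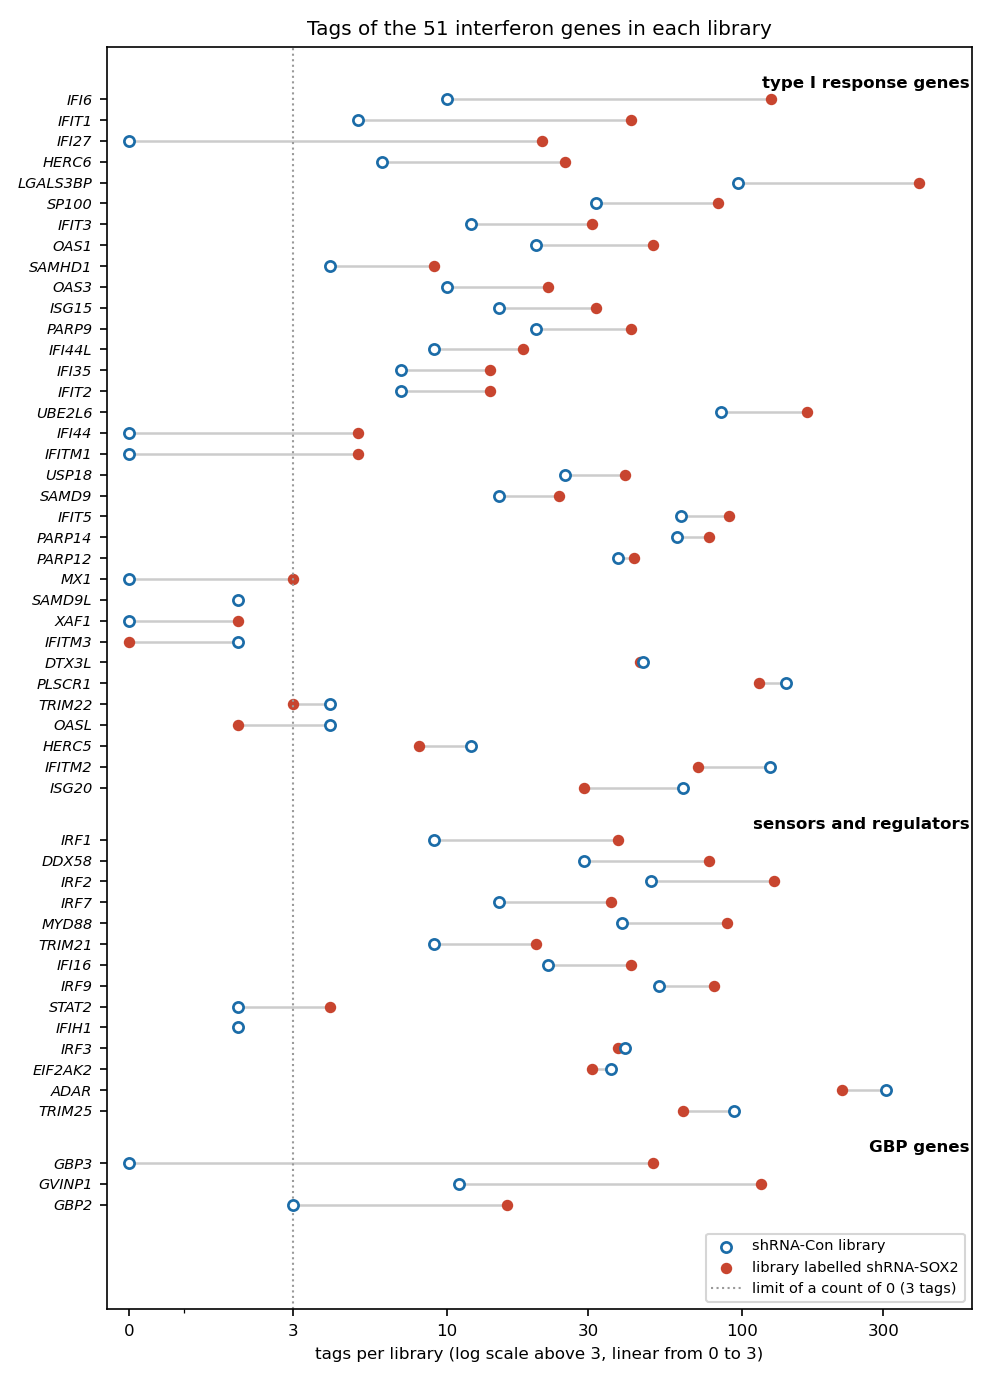
Tags of each of the 51 genes for the library labelled shRNA-SOX2 (filled red circles) and for shRNA-Con (open blue circles), on an axis that is logarithmic above 3 tags and linear below. The widest gaps belong to IFI6, IFIT1, IFI27, GBP3 and GVINP1, while ISG20, IFITM2 and ADAR have fewer in the library labelled shRNA-SOX2, and SAMD9L and IFIH1 have 2 tags in each, so that their circles coincide.

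Among the 39 members with 20 or more tags summed over both libraries, 32 (82.1%) had a log2 fold change above 0, against 44.9% of the 10045 genes of that depth. With any count below 3 tags set to 3, their median log2 fold change was 1.14 (range -0.98 to 4.20), and that of all 10045 genes was -0.10. With all 51 members kept, the median was 1.07. A log2 fold change of at least 1 was reached by 24 of the 39, against 10.4% of genes of that depth, and one of -1 or below by 0 of the 39, against 13.0%. When the 10045 genes were ranked by log2 fold change, GBP3 stood at rank 3, IFI6 at rank 13, GVINP1 at rank 18, IFIT1 at rank 29 and IFI27 at rank 44. The remaining 12 members had fewer than 20 tags. Of these MX1, IFITM3, SAMD9L, XAF1 and IFIH1 had 3 tags or fewer in both libraries, so no fold is given for them.

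**Figure D2:**
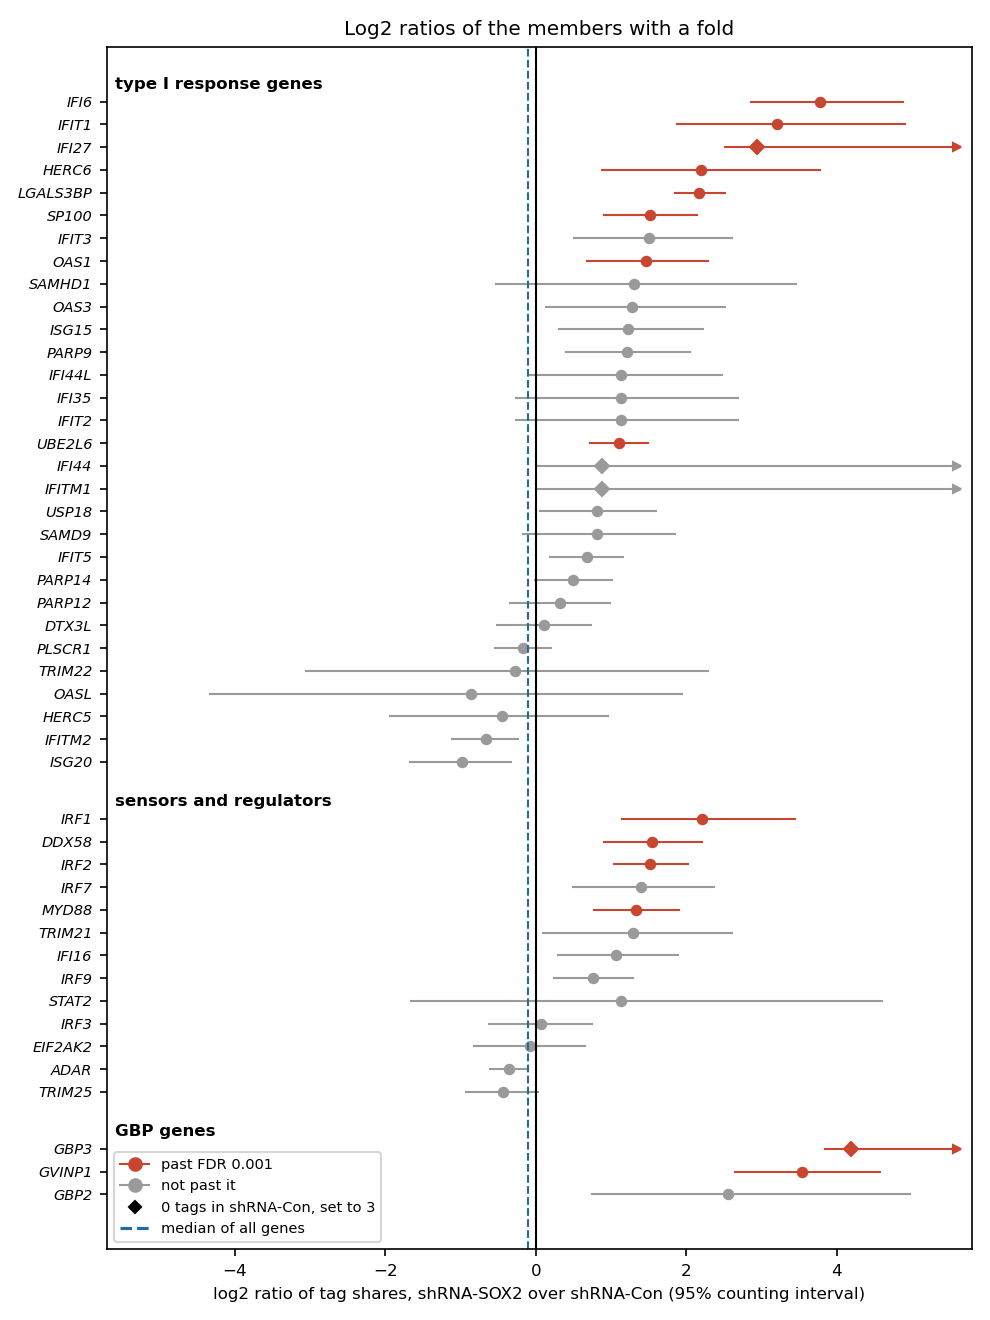
Log2 ratio of tag shares, library labelled shRNA-SOX2 over shRNA-Con, with 95% counting intervals for the 46 members with a fold. The 14 genes past FDR 0.001 (red) have intervals wholly above 0, arrows mark intervals without an upper end because shRNA-Con had 0 tags, and the dashed line is the median of all genes at -0.10.

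The IFI-named genes and the IFIT family held the widest differences among the type I response genes. IFI6, a small membrane protein with antiviral and survival functions, had 10 and 125 tags, which gives a log2 fold change of 3.78 (ratio 13.8, interval 7.24 to 29.4; adjusted p = 1.41e-27, Fisher's exact test). Its promoter stretch is the one with 3 cores printed above. IFI27, a related small hydrophobic protein, had 0 and 21 tags. Against the limit of 3 tags that a count of 0 allows, it was at least 7.70-fold higher (interval of the ratio from 5.73 upward; adjusted p = 1.38e-06, Fisher's exact test). The other genes grouped here by the IFI name stayed short of the threshold: IFI44L had 9 and 18 tags, IFI35 had 7 and 14, and IFI44 had 0 and 5.

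The IFIT proteins bind RNA that lacks the cap modifications of the host and block its translation. IFIT1 had 5 and 42 tags, and its log2 fold change was 3.21 (interval of the ratio 3.66 to 29.9; adjusted p = 2.88e-08, Fisher's exact test). Its neighbours in the cluster on chromosome 10 differed less, and none of them passed the test. IFIT3 had 12 and 31 tags (log2 fold change 1.51, adjusted p = 0.00688, Fisher's exact test), IFIT5 had 62 and 90 (0.68, adjusted p = 0.0144), and IFIT2 had 7 and 14 (1.14, adjusted p = 0.173). All 4 IFIT genes thus had more tags in the library labelled shRNA-SOX2, with 1 past the threshold. Over all genes 9.53% were higher, and a count of 1 in so few genes is no result about the family.

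ISG15 is a ubiquitin-like protein that is itself induced by interferon and attached to other proteins. UBE2L6, its conjugating enzyme, had 85 and 166 tags, and its log2 fold change was 1.10 (interval of the ratio 1.65 to 2.83; adjusted p = 4.19e-08, Fisher's exact test). HERC6, a ligase of the HERC family, had 6 and 25 tags, and its log2 fold change was 2.20 with an adjusted p of 0.000999 in Fisher's exact test, the last value inside the threshold. When the libraries were scaled by their clean tags, the total that the deposited TPM values rest on, HERC6 was outside it with an adjusted p of 0.00195. ISG15 itself had 15 and 32 tags and did not pass (1.23, adjusted p = 0.0169, Fisher's exact test). USP18, the protease that removes ISG15 from proteins and damps the receptor, had 25 and 40, and 35.8% of the 21-base windows of its longest transcript also occur in transcripts of other genes, chiefly USP41. HERC5, the main ISG15 ligase of human cells, had 12 and 8 tags. The conjugating enzyme and HERC6 were the members of this group past the threshold (2 of 5, 40%), and the modifier, USP18 and HERC5 were not. Over all genes 9.53% were higher, and the group as such was not tested. ISG15 had a log2 fold change of 1.23 on 47 tags and UBE2L6 one of 1.10 on 251, so their calls do not show that they differed.

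Among the enzymes that act on nucleic acids, OAS1 was higher. OAS1, which makes the short oligoadenylates that activate RNase L, had 20 and 50 tags (log2 fold change 1.46, adjusted p = 0.000327, Fisher's exact test), and with scaling by clean tags it also was outside the threshold (adjusted p = 0.00119). OAS3, a larger enzyme of the same kind, had 10 and 22 tags (1.28, adjusted p = 0.0541, Fisher's exact test), and OASL, a family member without that activity, had 4 and 2. The nucleotide hydrolase SAMHD1 had 4 and 9. ISG20, an exonuclease of RNA, had 63 and 29 tags, and its log2 fold change of -0.98 was the lowest among the members of at least 20 tags (adjusted p = 0.00817, Fisher's exact test). The dynamin-like GTPase MX1, a standard marker of the type I response, had 0 and 3 tags, too few in both libraries to read a direction. This group was thus mixed, with 1 of 6 genes past the threshold. The shares of all genes, 9.53% higher and 12.2% lower, also give a count of that size.

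SP100, a component of nuclear bodies that silence viral DNA, had 32 and 83 tags (log2 fold change 1.51, adjusted p = 8.80e-07, Fisher's exact test). LGALS3BP, a secreted glycoprotein that binds galectins, had 97 and 398 tags, and its log2 fold change of 2.17 had the narrowest interval among the members with a ratio above 4 (3.61 to 5.70; adjusted p = 5.60e-49, Fisher's exact test). Of the other effectors, SAMD9 had 15 and 24 tags, the scramblase PLSCR1 had 141 and 114, and the ubiquitin ligase TRIM22 had 4 and 3. SAMD9L had 2 in each library and XAF1, which promotes cell death, had 0 and 2. SP100 and LGALS3BP were accordingly the 2 of 7 past the threshold (28.6%). Over all genes 9.53% were higher, and the group as such was not tested.

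PARP9 and DTX3L form a complex that modifies histones and viral proteins, and their genes lie back to back on chromosome 3. Their promoter windows share the core at chr3:122564332-122564341, printed above in the stretch of DTX3L. PARP9 had 20 and 42 tags (log2 fold change 1.21, adjusted p = 0.00729, Fisher's exact test), and DTX3L had 46 and 45 (0.11, adjusted p = 0.847). Neither passed the test, nor did the ADP-ribosyltransferases PARP12 with 38 and 43 tags and PARP14 with 60 and 77. For DTX3L the sign depended on the scaling, since it was -0.0069 with clean tags.

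The IFITM genes encode membrane proteins that stop viruses at the point of fusion. None of the 3 passed the test, against 9.53% of all genes higher and 12.2% lower, which in so few genes is no result. IFITM2 had 124 and 71 tags, and its log2 fold change was -0.67 (adjusted p = 0.00714, Fisher's exact test), IFITM1 had 0 and 5, and IFITM3 had 2 and 0. Their sequences are alike: 47.9% of the 21-base windows of IFITM1, 35.2% of those of IFITM2 and 56.5% of those of IFITM3 occur in transcripts of other genes. How tags shared between genes were assigned is not given in the sources used here, so single values of this family are uncertain.

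Of the 5 genes of sensors and the editor ADAR, 1 (20%) was past the threshold and higher, that of the RNA helicase RIG-I. Over all genes 9.53% were higher and 12.2% lower, and a count of 1 in so few genes is no result about the group. DDX58, the gene of RIG-I, had 29 and 77 tags (log2 fold change 1.55, interval of the ratio 1.88 to 4.65; adjusted p = 1.93e-06, Fisher's exact test). IFIH1, the gene of the sister helicase MDA5, had 2 tags in each library, so nothing can be said about it at this depth. IFI16, a DNA sensor of the nucleus, had 22 and 42 tags (1.07, adjusted p = 0.0174, Fisher's exact test). EIF2AK2, the kinase PKR that halts translation on double-stranded RNA, had 36 and 31, with a ratio of 0.948 (interval 0.567 to 1.58). ADAR, which edits adenosine to inosine in double-stranded RNA and keeps self RNA from the sensors, had 307 and 218 tags, and its log2 fold change was -0.36 (interval of the ratio 0.654 to 0.933; adjusted p = 0.0184, Fisher's exact test).

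The interferon regulatory factors (IRFs) bind the element described above. IRF1, an activator, had 9 and 38 tags (log2 fold change 2.22, interval of the ratio 2.21 to 10.9; adjusted p = 3.41e-05, Fisher's exact test). IRF2, which is known to compete with IRF1 for its sites, had 49 and 128 (1.52, interval of the ratio 2.05 to 4.08; adjusted p = 4.84e-10). Both the activator and its antagonist were thus higher. IRF7, the factor that amplifies interferon production, had 15 and 36 tags, with a log2 fold change of 1.40, and its adjusted p of 0.00428 in Fisher's exact test was the closest to the threshold from outside among the members. IRF9, the DNA-binding subunit of ISGF3, had 52 and 80 tags (0.76, adjusted p = 0.0102), and all of its transcript windows (100%) also occur in transcripts of another annotated gene, AL136295.5. STAT2, its partner, had 2 and 4 tags, a ratio of 2.20 with an interval from 0.315 to 24.3. IRF3, which is activated by phosphorylation and is the factor downstream of RIG-I, had 40 and 38 tags, and its log2 fold change was 0.06, or -0.05 with clean tags. Of the IRF genes of this list, IRF1 and IRF2 passed, and IRF3, IRF7 and IRF9 did not. With STAT2 this was 2 of 6 (33.3%), against 9.53% of all genes higher and 12.2% lower, which in so few genes is no result about the group. IRF7 had a log2 fold change of 1.40 on 51 tags and IRF2 one of 1.52 on 177, so their calls do not show that they differed.

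MYD88, the adaptor of Toll-like receptors, had 39 and 89 tags (log2 fold change 1.33, adjusted p = 5.55e-06, Fisher's exact test). The ubiquitin ligase TRIM21, which is also a receptor for antibodies in the cytosol, had 9 and 20 (1.29, adjusted p = 0.0640), and TRIM25, the ligase known for activating RIG-I, had 94 and 63 (-0.44, adjusted p = 0.140). RIG-I and the ligase that activates it therefore stood on different sides of 0, the helicase past the threshold and the ligase not.

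The guanylate-binding proteins are large GTPases that attack the membranes of intracellular pathogens. GBP3 had 0 and 50 tags, at least 18.3-fold higher against the limit of 3 tags (interval of the ratio from 14.4 upward; adjusted p = 1.53e-15, Fisher's exact test). GVINP1, a pseudogene of a very large interferon-inducible GTPase, had 11 and 116 tags, and its log2 fold change was 3.54 (ratio 11.6, interval 6.25 to 23.9; adjusted p = 2.91e-24, Fisher's exact test). GBP2 had 3 and 16 tags, a ratio of 5.87 with an interval from 1.68 to 31.4 (adjusted p = 0.00686 in Fisher's exact test), and so did not pass. The 3 genes together had 14 and 182 tags. GBP4, which was not among the 51, had 31 and 29. Of the 21-base windows of the longest transcript, 19.1% in GBP3, 24.9% in GBP2 and 3.31% in GVINP1 occur in other genes, and in the last 500 bases the share was 0% in GBP3 and GBP2 and 13.8% in GVINP1.

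The rest of the interferon system was described from a second list of 105 symbols, alternative names included, that were chosen by function, of which 66 matched a row. Of these, 4 (6.06%) were higher, against 9.53% of all genes, and 5 (7.58%) were lower, against 12.2%. Their median log2 fold change over the 50 genes with at least 20 tags was -0.15, near the -0.10 of all genes. The split depended on the scaling: with TMM factors 6 were higher and 5 lower, and with clean tags 3 were higher and 8 lower. Of the interferon ligands of the list, IFNE was the only one with a row, with 3 and 4 tags. The other ligands were not analysed here.

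Of the 10 receptor chains and kinases with a row, 0 were higher and 1 was lower, counts of a size that the shares of all genes (9.53% and 12.2%) also give. The kinase JAK1 had 399 and 182 tags, and its log2 fold change was -0.99 (interval of the ratio 0.419 to 0.600; adjusted p = 3.12e-14, Fisher's exact test). The type I receptor chains IFNAR1 with 91 and 96 tags and IFNAR2 with 16 and 16 did not pass, nor did the type II chains IFNGR1 with 99 and 49 (-0.88, adjusted p = 0.00166, Fisher's exact test) and IFNGR2 with 36 and 16 (-1.03, adjusted p = 0.0476). IL10RB, the shared chain of the type III receptor, had 18 and 12, and the kinase JAK2 had 38 and 20. The group's median log2 fold change over 8 genes was -0.62.

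Of the 11 inhibitors of the pathway with a row, 3 (27.3%) were lower, against 12.2% of all genes, and 0 were higher, against 9.53%, and the group as such was not tested. SOCS3, which blocks the receptor-bound kinases, had 69 and 20 tags (log2 fold change -1.65, adjusted p = 8.31e-06, Fisher's exact test). The phosphatases PTPN2, which acts on JAK1, and PTPN11 had 128 and 41 tags (-1.50, adjusted p = 6.40e-09) and 508 and 302 tags (-0.61, adjusted p = 3.79e-08). The group's median over 10 genes was -0.56. Of the 9 further sensors and adaptors none passed in either direction, against 9.53% of all genes higher and 12.2% lower, which in so few genes is no result about them. MAVS, the adaptor of RIG-I on mitochondria, had 170 and 119 tags, and the kinase TBK1 had 259 and 276.

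The 35 further interferon-induced genes, of which 26 had at least 20 tags, had a median of -0.01, unlike the 1.14 of the members. Of the 35, 4 (11.4%) were higher, near the 9.53% of all genes, and 1 (2.86%) was lower, against 12.2%. Those higher were IFI30, a thiol reductase of the lysosome, with 58 and 226 tags (log2 fold change 2.10, adjusted p = 8.61e-27, Fisher's exact test), TRIM5, which recognises retroviral capsids, with 68 and 158 (1.35, adjusted p = 1.74e-10), the aminopeptidase LAP3 with 177 and 313 (0.96, adjusted p = 8.24e-12), and ZC3HAV1, which binds viral RNA, with 106 and 157 (0.70, adjusted p = 0.000470). RIPK2, a kinase of bacterial sensing, was lower with 153 and 49 tags (-1.50, adjusted p = 1.29e-10, Fisher's exact test). The difference between the medians of the lists was not tested, and the members were named with earlier results of these data known.

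**Figure D3:**
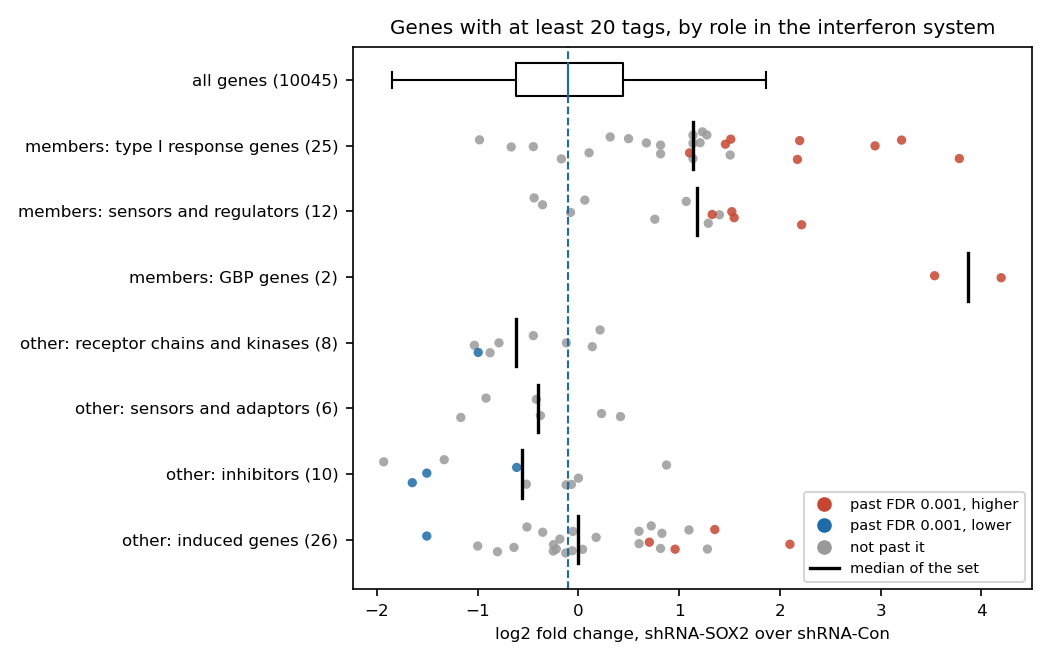
Log2 fold changes of genes with at least 20 tags, by role, with the number of genes in parentheses. Each point is 1 gene, coloured by its side of FDR 0.001, black bars are medians, and the box shows the quartiles of all genes with whiskers over the central 95%. The members' groups have medians of 1.14, 1.18 and 3.87, while receptor chains and kinases (-0.62) and inhibitors (-0.56) lie below the all-gene median of -0.10. The 3.87 rests on 2 genes, GVINP1 and GBP3, whose 0 tags in shRNA-Con were set to 3.

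The promoter core was found in members on both sides of the threshold. Of the 12 genes past the threshold that have a window, 6 held the core, and of the 29 that did not pass, 20 held it. By group, it was found in 21 of 29 type I response genes, 4 of 11 sensors and regulators and the single GBP gene with a window, and in 9 of 48 of the other pathway genes (18.8%). UBE2L6, HERC6, OAS1, SP100, DDX58 and IRF1 were higher without this core in their windows. No difference between these shares was tested.

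Fisher's exact test takes the spread between cultures as 0, which 1 library a condition cannot show. When edgeR's exact test was given a coefficient of variation between cultures of 0.1, 10 of the 51 stayed past FDR 0.001. With a coefficient of 0.2 the 4 genes IFI6, LGALS3BP, GBP3 and GVINP1 did, all of them higher, against 0.860% of all genes in either direction. IFI27 (adjusted p = 0.00128) and IFIT1 (adjusted p = 0.00166) lay just outside in edgeR's exact test. With a coefficient of 0.4 no member did (0 of 51), nor any gene of the table, and at an unadjusted p under 0.05 it marked 7 members (13.7%), all higher, against 4.77% of all genes.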

How the data were processed

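Digital gene expression tags were measured in 1 library of A549 cells labelled shRNA-SOX2 and 1 labelled shRNA-Con. The authors deposited a raw tag count per Entrez Gene ID, without normalization, and a TPM column, in which the deposited count is divided by all clean tags of that library. The clean tags recovered from it were 3516266 (shRNA-Con) and 3456234 (library labelled shRNA-SOX2), and 65.5% and 60.6% of them were on listed genes. The submitters' processing notes name the genome build hg19, and the aligner is not given in the sources used here. The deposited log2 ratios, p-values and FDR hold the authors' own comparison and were not used. No listed gene had a count of 1. Of the columns of per-sample values, 0 were left unmapped.

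Log2 fold changes were computed from counts divided by the gene tags of the library, with a count below 3 tags set to 3. Fisher's exact test was run on all 13137 genes, with Benjamini-Hochberg adjustment, in Python 3.11.15 with scipy 1.17.1. It was tested on simulated counts. Scaling factors came from edgeR 4.0.16 and DESeq2 1.42.0 in R 4.3.3, as did the tests with an assumed spread. Medians use genes with at least 20 tags. The alternatives were 3 other scalings, minimum tag counts, another handling of low counts, assumed spreads, other thresholds and a stricter promoter element. All members may be named. Of the other pathway genes, those past FDR 0.001 were named, and the receptor chains and kinases with at least 20 tags. The results of 1 further gene are not reported here. GBP4, MAVS, TBK1 and IFNE were named after their values were seen. The members and the lists were chosen with earlier results of these data known. Symbols of 22 genes that had turned into dates were restored from the Gene ID. The 19 rows lacking a symbol, with 0.0535% (shRNA-Con) and 0.0372% of the tags, stayed in the totals. Promoter windows are from RefSeq on GRCh38.p14 and were matched by symbol and Gene ID. They were not used to place tags. Shared 21-base windows were counted in the longest transcript of each gene in GENCODE.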

Additional observations from a re-analysis of the deposited data

How the results depend on the processing

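No paired analysis was possible because there was 1 library of either kind, and for the same reason no library could be left out. With an assumed coefficient of variation of 0.1, 0.2 and 0.4, 1166, 113 and 0 genes of the whole table passed in place of 2849, and 10, 4 and 0 members in place of 14. For the type I response genes the counts were 5, 2 and 0 in place of 8. The sensors and regulators had 0 at both 0.2 and 0.4 in place of 4, the GBP genes 0 at 0.4 in place of 2, and the other pathway genes 0 at 0.2 and 0.4 in place of 9. At an unadjusted p under 0.05, edgeR's exact test with 0.4 marked 627 genes of the table (4.77%). These held 4 type I response genes (11.8%), 1 sensor or regulator (7.14%), 2 GBP genes (66.7%) and 2 other pathway genes (3.03%). With 0.2 it marked 2481 genes of the table (18.9%), 5 sensors and regulators (35.7%) and 12 other pathway genes (18.2%). The share of the other pathway genes was thus near that of all genes. At an FDR of 0.05, 4902 genes, 25 members, 14 type I response genes, 8 sensors and regulators and 22 other pathway genes passed. When a log2 fold change of 1 or more in either direction was also required, 1570 genes and 5 other pathway genes did. The stricter promoter element lowered the share of members that hold it from 63.4% to 34.1%.

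Scaling by TMM factors or the median ratio kept the 14 calls, and scaling by clean tags kept 12 of them, without HERC6 and OAS1. Over the whole table, 1252 calls were higher and 1597 lower, and with clean tags the split was 1008 and 2010. Scaling also moved the all-gene median, from -0.10 as reported to -0.03 (TMM factors, median ratio) and -0.22 (clean tags). The members' median was 1.14, 1.21, 1.21 and 1.02. Its distance from that of all genes was 1.24 under each, which could not differ because a scaling shifts every log2 fold change alike. With clean tags the log2 fold changes of DTX3L (-0.0069) and IRF3 (-0.049) turned negative, as all members fell by the same shift. Of the 46 members with a fold, 10 lost their call with a coefficient of 0.2. Apart from these 10, DTX3L and IRF3, the members kept their direction and their side of the threshold under the settings tried for single genes.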
